A study of Mus musculus with 2 samples.

Results

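Paternally expressed imprinted genes are described here in neurons and their neighbours in the postnatal mouse dentate gyrus, with and without the histone methyltransferase gene Setdb1. The 10 genes were Ndn, Magel2, Snrpn, Peg3, Usp29, Nnat, Mest, Plagl1, Peg10 and Sgce, chosen by symbol from the 32285 genes of the count matrices, and each symbol matched 1 row. Dentate gyri of postnatal day 5 mice were dissociated enzymatically, and 3′ ends of polyadenylated RNA were counted in single cells with the 10x Chromium system. There was 1 library of the control group, whose genotype label is wild type, and 1 library of the Setdb1_cKO group, a conditional knockout. The sources used here name neither the Cre driver, nor the deleted exons, nor how many animals went into a library. Xist, the transcript of the inactive X chromosome, had 16 UMIs in kept control cells and 94227 in kept Setdb1_cKO cells, and the Y-linked Ddx3y had 4193 and 0, so that genotype, sex, animal and library cannot be told apart.

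In a mammal, an imprinted gene is read from the chromosome of one parent because a control region carries DNA methylation from the egg or the sperm. Zinc-finger proteins such as ZFP57 and ZFP445 bind the methylated copy and bring TRIM28 and SETDB1, which adds the repressive mark H3K9me3 there, and for most of the genes described here the marked copy is the maternal one. Many paternally expressed genes are strongly used in the developing brain, and loss of the Snrpn, Ndn and Magel2 region is linked to Prader-Willi syndrome in humans. The 3′ counts carry no information on alleles, so the parent of origin of the transcripts was not measured.

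Values are unique molecular identifiers (UMIs), each standing for 1 captured RNA molecule, added up within a cell class and given per 1000000 UMIs of that class (CPM). Cells were put in 19 classes by marker genes, and 8429 of 10849 kept control cells and 7218 of 9367 kept Setdb1_cKO cells passed exactly 1 gate. Intervals in parentheses are exact 95% intervals for counting error only. With 1 library per group no difference between genotypes has a replicate check and no p-value is given. A gene is called measured in a class with at least 30 UMIs over both libraries, and past the threshold at 1.5-fold or more in either direction. Levels are compared between classes or libraries and not between genes, because 3′ capture differs from gene to gene.

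The neuron classes were checked against their markers. Early neuroblasts (1689 control and 1619 Setdb1_cKO cells) were gated on markers that include Dcx and Calb2. Prox1, the granule lineage factor, was not among these markers and was found in 94% and 92.2% of them. Late neuroblasts numbered 252 and 749 cells. Cajal-Retzius cells, early-born neurons of the marginal zone, numbered 470 and 437. Pyramidal or hilar neurons numbered 128 and 363, and all had Neurod6 by the gate. Crym was found in 98.4% of them in control and 98.3% in Setdb1_cKO, and Neurod2 in 96.1% and 98.9%, while Pou3f1 was found in 0% and 0.275%. The name of the class thus rests mainly on Neurod6, Neurod2, Nrp1 and Crym. Only 22 control cells were gated as maturing granule neurons and 28 as GABAergic neurons, so orders of levels are given over the 15 control classes with at least 50 cells, which leave these out. Median depth per cell was 5937 UMIs in control and 6982 in Setdb1_cKO, and 68 barcode sequences occurred in both libraries, which is 0.472% and 0.564% of their barcodes.

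Setdb1 itself was lower in Setdb1_cKO radial glia, astrocytes, granule lineage progenitors and neuroblasts, pyramidal or hilar neurons and Cajal-Retzius cells, but oligodendrocyte progenitors did not differ beyond counting error. Early neuroblasts had 42.1 CPM (38.0 to 46.5) of it in control against 19.6 CPM (17.1 to 22.4) in Setdb1_cKO, a ratio of 0.465 (0.392 to 0.552). In Cajal-Retzius cells it was at 42.8 and 14.2 CPM, and in oligodendrocyte progenitors at 53.6 and 51.2 CPM, a ratio of 0.956 (0.693 to 1.31). A 3′ count need not lie in the deleted part, so these values describe the transcript that remained and not the protein. Of the partners in imprint maintenance, Zfp57 was at 87.1 and 65.2 CPM, Zfp445 at 69.2 and 78.4 CPM and Trim28 at 106 and 83.7 CPM in early neuroblasts, all within 1.5-fold. Atf7ip, which encodes the partner that stabilises SETDB1, was at 123 and 314 CPM there, a ratio of 2.56 (2.39 to 2.74).

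The 10 genes lie in 6 imprinted domains (GENCODE vM21, GRCm38, which is the mm10 build the counts were made on). Ndn (chr7:62346569-62350262, + strand) and Magel2 (chr7:62377010-62381640, + strand) are neighbours in the Prader-Willi domain, and Snrpn (chr7:59982495-60140219, − strand) lies in the same domain and overlaps Snurf and Gm38393 on its own strand. Snurf had 0 UMIs in the neuron classes of both libraries, so the split of reads among these overlapping genes is uncertain. Peg3 (chr7:6703892-6730431, − strand) and Usp29 (chr7:6730578-6967219, + strand) start head to head, and so do Sgce (chr6:4674350-4747207, − strand) and Peg10 (chr6:4747306-4760517, + strand). Nnat (chr2:157560078-157562522, + strand) lies within Blcap on the opposite strand. Mest spans chr6:30723547-30748465 (+ strand) and its 3′ end overlaps Copg2 on the opposite strand. Plagl1 spans chr10:13060504-13131694 (+ strand).

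Promoter windows from 250 bases before to 50 after a start were available from RefSeq (GRCm38.p6) for 8 of the 10 genes. Peg10 and Sgce had no entry. The hexamer TGCCGC, which ZFP57 binds when methylated, was searched on both strands (GCGGCA is its reverse complement). It occurred in 3813 of 32851 RefSeq windows, 11.6%, and in 5 of the 13 windows of these genes, which belong to 4 of the 8. The following 4 windows are shown because they hold it, with the hexamer in capitals. The other window that holds it, of Mest, starts 3 bases further on and holds the same matches, and is not printed. A match is a run of letters and not a measured binding site, and a window without a match says nothing of binding elsewhere in the domain.
Nnat, chr2:157559828-157560127, + strand: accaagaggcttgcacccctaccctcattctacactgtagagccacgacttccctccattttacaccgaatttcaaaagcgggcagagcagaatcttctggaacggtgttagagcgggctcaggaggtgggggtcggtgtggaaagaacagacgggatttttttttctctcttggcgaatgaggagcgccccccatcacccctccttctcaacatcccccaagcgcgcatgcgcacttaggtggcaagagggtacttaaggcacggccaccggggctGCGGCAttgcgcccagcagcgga
Mest, chr6:30737800-30738099, + strand: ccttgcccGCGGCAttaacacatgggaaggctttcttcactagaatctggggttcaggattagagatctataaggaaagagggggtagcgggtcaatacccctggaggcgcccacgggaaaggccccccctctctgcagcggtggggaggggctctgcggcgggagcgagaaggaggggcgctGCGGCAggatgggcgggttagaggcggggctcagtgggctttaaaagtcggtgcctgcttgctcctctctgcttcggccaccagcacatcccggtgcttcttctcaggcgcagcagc
Plagl1, chr10:13090582-13090881, + strand: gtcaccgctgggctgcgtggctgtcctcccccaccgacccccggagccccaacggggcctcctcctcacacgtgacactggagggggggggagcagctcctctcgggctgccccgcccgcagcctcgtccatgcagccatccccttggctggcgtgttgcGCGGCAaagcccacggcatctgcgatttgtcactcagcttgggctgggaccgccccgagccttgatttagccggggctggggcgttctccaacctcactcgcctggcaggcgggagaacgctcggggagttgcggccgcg
Snrpn, chr7:60005150-60005449, − strand: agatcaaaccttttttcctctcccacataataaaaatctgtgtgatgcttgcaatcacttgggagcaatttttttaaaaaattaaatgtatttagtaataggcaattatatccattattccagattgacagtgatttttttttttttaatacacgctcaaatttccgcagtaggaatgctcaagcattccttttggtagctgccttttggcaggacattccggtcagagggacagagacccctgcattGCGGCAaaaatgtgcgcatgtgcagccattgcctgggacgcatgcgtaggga

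The shared start of Peg3 and Usp29 is shown because the UMIs of these genes part company between cell classes, as described below. In the Usp29 window the 163 bases between the RefSeq starts of the genes are in capitals. They hold 5 CpG pairs, and 62.0% of them are G or C.
Usp29 and Peg3, chr7:6730333-6730632, + strand: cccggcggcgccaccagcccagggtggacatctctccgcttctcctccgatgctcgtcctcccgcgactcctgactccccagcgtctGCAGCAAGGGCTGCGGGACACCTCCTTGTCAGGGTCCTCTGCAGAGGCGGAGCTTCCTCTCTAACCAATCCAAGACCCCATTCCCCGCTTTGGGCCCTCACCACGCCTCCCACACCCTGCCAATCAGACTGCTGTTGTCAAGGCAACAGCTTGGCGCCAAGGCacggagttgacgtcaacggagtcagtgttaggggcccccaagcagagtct

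In the Prader-Willi domain, Ndn and Snrpn were highest in pyramidal or hilar neurons and Cajal-Retzius cells among control classes with at least 50 cells. Ndn encodes necdin, a MAGE-family protein of postmitotic neurons. In control it was at 493 CPM (464 to 524) in pyramidal or hilar neurons and 441 CPM (420 to 464) in Cajal-Retzius cells. Oligodendrocyte progenitors followed at 255 CPM among the classes with at least 50 cells, while the 28 control GABAergic neurons were at 531 CPM (454 to 617) and the 22 maturing granule neurons at 347 CPM (283 to 422). It was lower in early neuroblasts, at 220 CPM (211 to 230), and in late neuroblasts, at 214 CPM (192 to 239), which did not differ beyond counting error. Radial glia at 199 CPM and astrocytes at 175 CPM were close to the neuroblasts, so Ndn was not particular to neurons. It was lowest in microglia at 29.6 CPM (20.4 to 41.6) and border macrophages at 17.4 CPM (6.98 to 35.8).

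Snrpn encodes SmN, a neuronal version of a core splicing protein. In control it was at 39.6 CPM (33.7 to 46.2) in radial glia, 76.4 CPM (70.6 to 82.5) in intermediate progenitors, 117 CPM (110 to 124) in early neuroblasts and 143 CPM (125 to 164) in late neuroblasts. Each step along that order was larger than its counting error in control, and Setdb1_cKO gave the same order with 35.0, 77.0, 140 and 181 CPM. Cajal-Retzius cells at 302 CPM (284 to 321) and pyramidal or hilar neurons at 295 CPM (272 to 318) were above the neuroblasts and did not differ from each other beyond counting error. The 22 control maturing granule neurons were at 375 CPM (308 to 452). In cells thinned to 2000 UMIs each, 18.7% of control early neuroblasts (16.9 to 20.7) and 43.8% of Cajal-Retzius cells (39.1 to 48.6) had a Snrpn UMI. Of the classes read for free RNA, the share was 1.89% (0.39 to 5.41) in microglia and 7.5% (2.80 to 15.6) in endothelial cells. It was 12.1% (3.40 to 28.2) in erythroid cells. Without thinning the shares in early neuroblasts, Cajal-Retzius cells and microglia were 40.9%, 80.4% and 6.70%, at median depths of 5145, 7513 and 5951 UMIs.

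Between genotypes both genes stayed within 1.5-fold in neuroblasts, pyramidal or hilar neurons and Cajal-Retzius cells. The Setdb1_cKO to control ratio of Ndn was 1.13 (1.07 to 1.20) in early neuroblasts, 1.0 (0.886 to 1.14) in late neuroblasts, 0.867 (0.809 to 0.931) in pyramidal or hilar neurons and 1.02 (0.952 to 1.09) in Cajal-Retzius cells. For Snrpn it was 1.19 (1.1 to 1.29), 1.27 (1.09 to 1.47), 0.899 (0.821 to 0.985) and 0.998 (0.919 to 1.08) in the same order. All 10 neural classes with at least 50 cells in both libraries had Ndn and Snrpn within 1.5-fold. The lowest ratios among them were in cycling intermediate progenitors, 0.750 (0.658 to 0.854) for Ndn and 0.726 (0.585 to 0.898) for Snrpn. The highest Snrpn ratio was 1.35 (1.04 to 1.74) in oligodendrocyte progenitors, where Setdb1 did not differ beyond counting error. In maturing granule neurons, with 22 control cells, Ndn was at 0.737 (0.589 to 0.929) and Snrpn at 0.677 (0.544 to 0.847). In early neuroblasts the Snrpn ratio was 1.04 after every cell was thinned to 2000 UMIs and gated again, and 1.07 over the cells with a Prox1 UMI and no Neurod6 or Crym UMI.

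Magel2, which encodes a MAGE-family partner of a ubiquitin ligase in endosomal recycling, was close to the limit of detection. It had 24 UMIs in all kept control cells and 53 in all kept Setdb1_cKO cells. Of these, 6 and 20 came from Cajal-Retzius cells, at 1.66 CPM (0.609 to 3.61) and 4.89 CPM (2.99 to 7.55). The ratio there was 2.95 (1.14 to 8.97), over 26 UMIs and so under the minimum of 30. No class reached the minimum for Magel2, and late neuroblasts had 0 UMIs in both libraries.

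The long transcript Snhg14 continues from the Snrpn region toward Ube3a. Its ratio was above that of Snrpn in early neuroblasts and pyramidal or hilar neurons, but not in Cajal-Retzius cells. Early neuroblasts had 58.7 CPM (53.8 to 63.9) of Snhg14 in control against 98.2 CPM (92.4 to 104) in Setdb1_cKO, 1.67 (1.51 to 1.86) times as much. In pyramidal or hilar neurons it was at 64.4 CPM (54.1 to 76.1) and 197 CPM (187 to 208), a ratio of 3.06 (2.57 to 3.68), where Snrpn was at 0.899. In Cajal-Retzius cells the Snhg14 ratio was 0.947 (0.828 to 1.08). Ube3a, the ubiquitin ligase gene that Snhg14 runs against, had ratios of 1.09, 0.926 and 0.977 in these classes. The difference between the Snhg14 and Snrpn ratios was not tested.

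Peg3 and Usp29 share a start region, but their UMIs were spread over the classes in different ways. Peg3 encodes a zinc-finger transcription factor. In control it was highest in fibroblasts at 293 CPM (265 to 323) and Cajal-Retzius cells at 285 CPM (268 to 303), which did not differ beyond counting error, followed by oligodendrocyte progenitors at 208 CPM. Early neuroblasts at 85.7 CPM and late neuroblasts at 79.9 CPM were below radial glia at 120 CPM. Usp29, a ubiquitin-specific protease gene, was instead highest in late neuroblasts at 75.9 CPM (62.6 to 91.2) and early neuroblasts at 72.7 CPM (67.3 to 78.4), and was at 7.87 CPM in astrocytes and 8.82 CPM in fibroblasts.

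Usp29 gave 2.93% (1.52 to 5.06) of the UMIs of the pair in control fibroblasts, 6.63% (5.47 to 7.95) in astrocytes and 14.4% (12.5 to 16.6) in Cajal-Retzius cells. In the granule lineage it gave 11.2% (8.69 to 14.1) in radial glia, 35.2% (32.0 to 38.4) in intermediate progenitors, 45.9% (43.3 to 48.5) in early neuroblasts and 48.7% (42.2 to 55.3) in late neuroblasts. Setdb1_cKO gave 9.66%, 34.4%, 41.2% (39.1 to 43.4) and 51.5% (48.2 to 54.7) in the same classes, and 3.44% in fibroblasts. In both libraries the share was thus higher in neuroblasts than in radial glia, with intervals that did not overlap in control. The share is a ratio of 3′ UMIs of genes with different ends and is not a ratio of molecules.

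**Figure D1:**
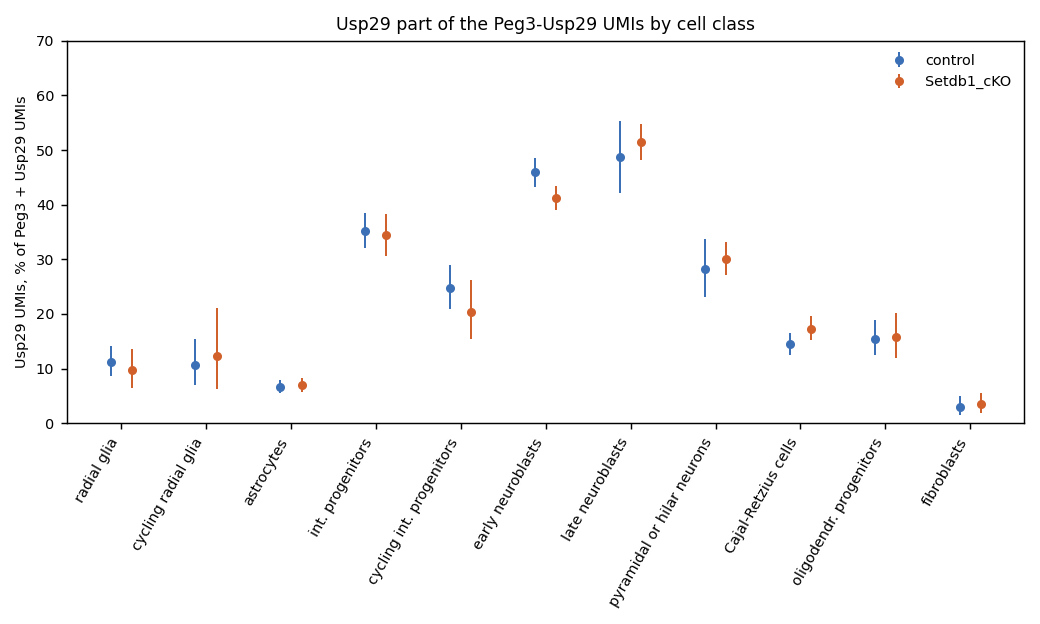
Usp29 UMIs as a percent of Peg3 plus Usp29 UMIs (vertical axis) in 11 cell classes (horizontal axis), for the control library (blue) and the Setdb1_cKO library (orange), with exact 95% binomial intervals. Fibroblasts are at 2.93% and 3.44%, and late neuroblasts at 48.7% and 51.5%.

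Between genotypes, the Peg3 level of early neuroblasts was 85.7 CPM (79.8 to 91.9) in control against 109 CPM (103 to 116) in Setdb1_cKO, a ratio of 1.28 (1.17 to 1.40). It was lower in Setdb1_cKO Cajal-Retzius cells, at 285 and 235 CPM, a ratio of 0.826 (0.756 to 0.903). In cycling radial glia it was at 93.1 CPM (80.9 to 107) and 47.4 CPM (37.4 to 59.1), a ratio of 0.509 (0.387 to 0.663), which passed the threshold. Usp29 had ratios of 1.06 (0.953 to 1.17), 1.1 (0.893 to 1.36), 1.08 (0.838 to 1.40) and 1.02 (0.830 to 1.26) in early neuroblasts, late neuroblasts, pyramidal or hilar neurons and Cajal-Retzius cells. None of these 4 Usp29 intervals left out 1. Zim1, a zinc-finger gene of the Peg3 domain, was at 1.31 and 3.22 CPM in early neuroblasts, a ratio of 2.46 (1.25 to 5.20), and at 23.8 and 10.5 CPM in pyramidal or hilar neurons, a ratio of 0.440 (0.304 to 0.641).

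**Figure D2:**
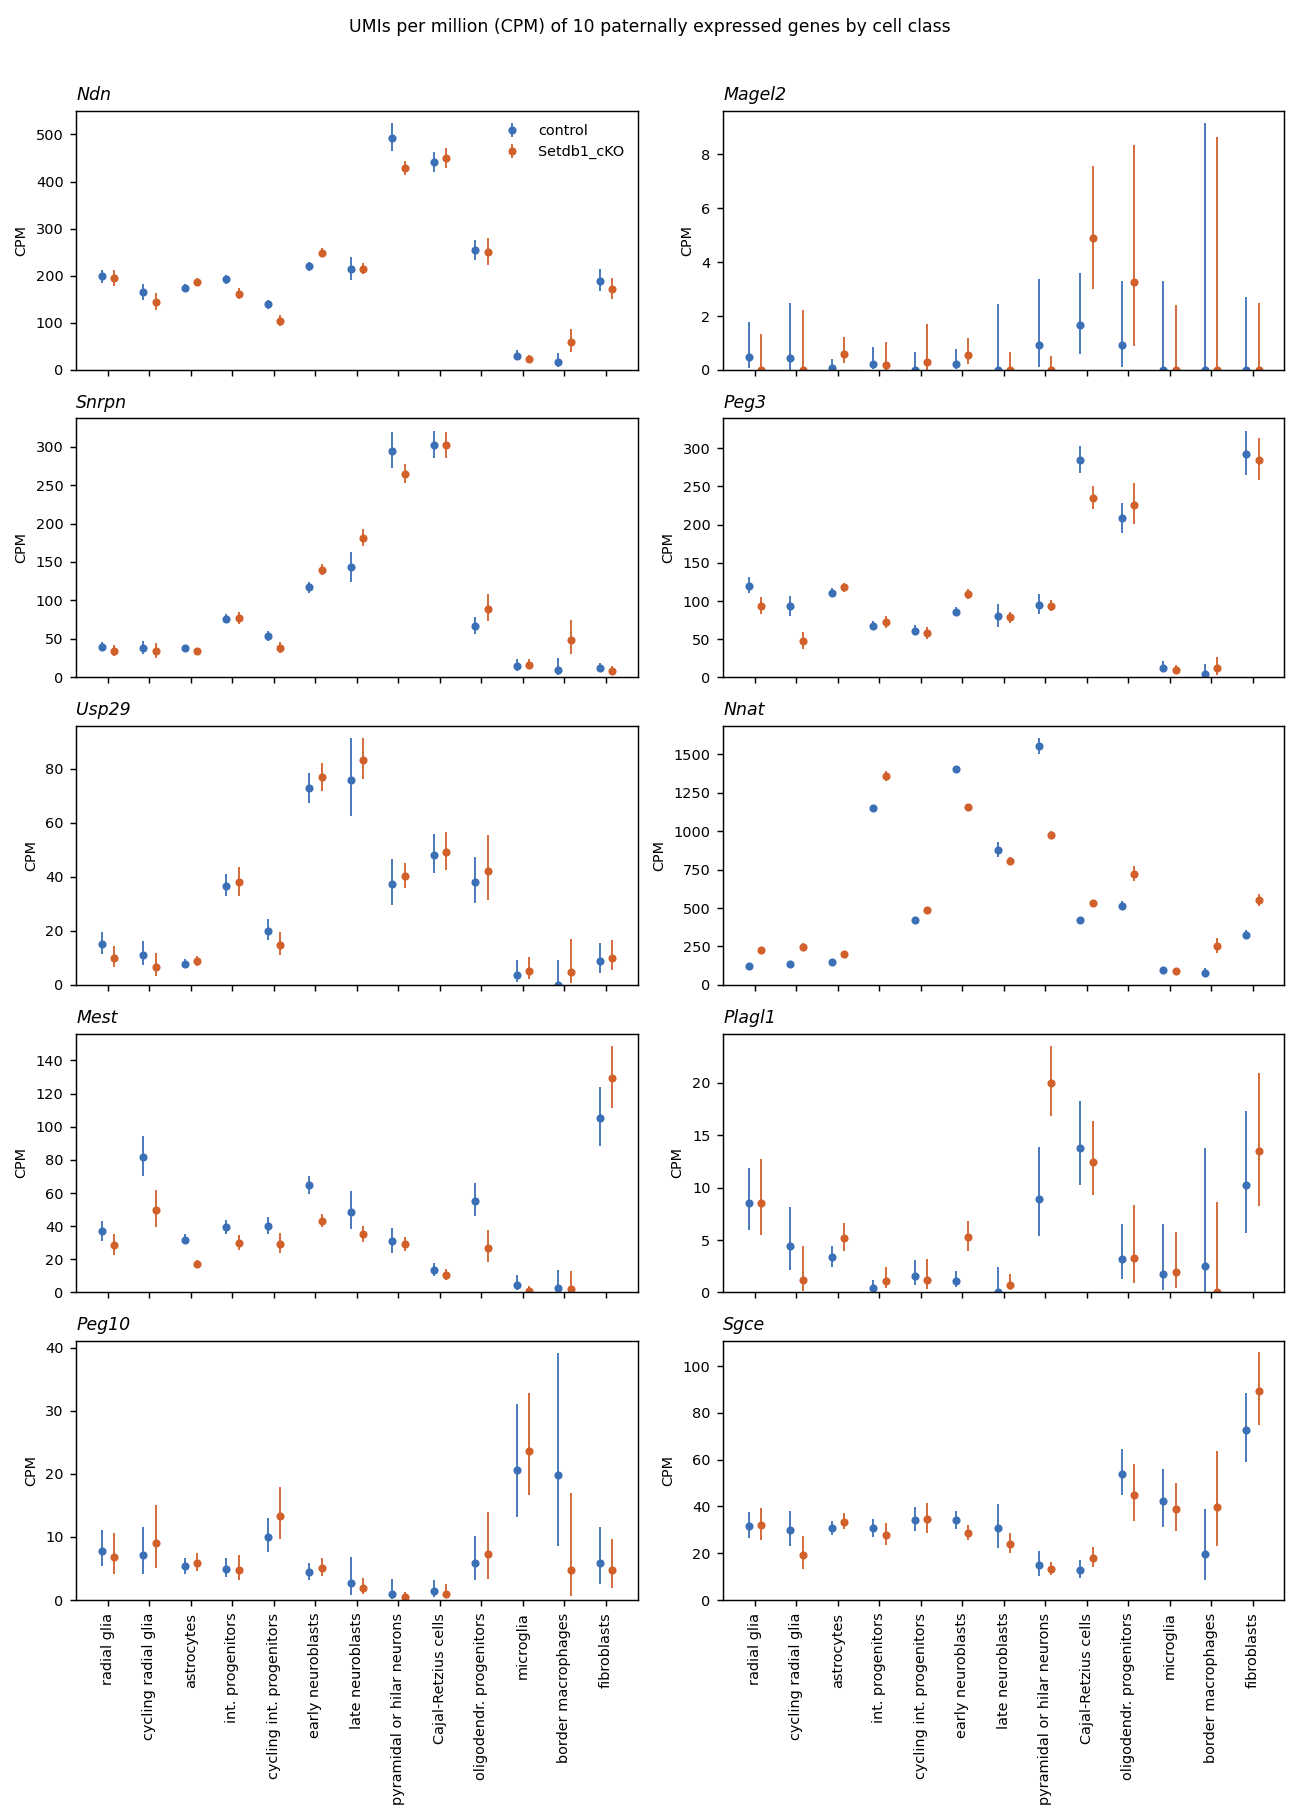
Levels in CPM (vertical axes) of the 10 genes in the 13 cell classes with at least 50 cells in both libraries (horizontal axis), 1 panel per gene, with control in blue, Setdb1_cKO in orange and exact 95% Poisson intervals as bars. Snrpn is higher in neurons than in glia in both libraries, and the libraries lie apart for Nnat in radial glia (121 and 230 CPM) and for Mest in astrocytes (31.9 and 17.2 CPM). Axes start at 0 and differ between panels.

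Nnat had ratios on both sides of 1 and past the threshold among the neural classes, 1.90 in radial glia and 0.629 in pyramidal or hilar neurons. It encodes neuronatin, a small membrane protein of the endoplasmic reticulum. In control it was at 121 CPM (111 to 132) in radial glia, 1149 CPM (1126 to 1172) in intermediate progenitors, 1401 CPM (1377 to 1425) in early neuroblasts, 879 CPM (833 to 928) in late neuroblasts and 1552 CPM (1500 to 1606) in pyramidal or hilar neurons. Cajal-Retzius cells were well below these neurons, at 422 CPM (401 to 444). In cells thinned to 2000 UMIs, 88.9% of control early neuroblasts and 17.1% of radial glia had a Nnat UMI. Microglia and endothelial cells, read for free RNA, were at 11.9% (7.35 to 18.0) and 13.8% (7.07 to 23.3). Erythroid cells, also read for free RNA, were at 51.5% (33.5 to 69.2), above radial glia, so this background depended on the class.

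In Setdb1_cKO, Nnat was higher in glia and progenitors. Radial glia were at 230 CPM (213 to 248) against 121 CPM in control, a ratio of 1.90 (1.69 to 2.14), and cycling radial glia had a ratio of 1.82 (1.56 to 2.11). Astrocytes had a ratio of 1.36 (1.28 to 1.45), and the value for intermediate progenitors was 1.18 (1.14 to 1.22). It was 1.40 (1.28 to 1.53) in oligodendrocyte progenitors, where Setdb1 did not differ beyond counting error, and 1.25 (1.17 to 1.34) in Cajal-Retzius cells. Thinned to 2000 UMIs, 29.9% of Setdb1_cKO radial glia (25.5 to 34.6) had a Nnat UMI, against 17.1% in control (14.5 to 20.1). In microglia the shares were 11.9% and 13.7%, and the ratio of CPM was 0.932 (0.718 to 1.21). Endothelial cells, 105 and 37 in number, had shares of 13.8% (7.07 to 23.3) and 24.1% (10.3 to 43.5). Their ratio of CPM was 1.82 (1.26 to 2.60), and that of erythroid cells was 0.946 (0.721 to 1.24). The classes read for free RNA thus differed, and the part of free RNA in the radial glia ratio was not tested. Stmn2, a neuron gene, had a ratio of 1.15 (0.958 to 1.39) in radial glia. Fibroblasts had 326 CPM and 551 CPM, a ratio of 1.69 (1.5 to 1.90).

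In the neuroblasts and Neurod6 neurons Nnat was lower in Setdb1_cKO. Early neuroblasts were at 1153 CPM (1133 to 1174), a ratio of 0.823 (0.803 to 0.844), and late neuroblasts at 808 CPM, a ratio of 0.919 (0.864 to 0.978). Pyramidal or hilar neurons were at 977 CPM against 1552 CPM, a ratio of 0.629 (0.604 to 0.656). The median gene of that class was itself lower by 0.13 on the log2 scale in Setdb1_cKO, and scaling to the median gene gave a Nnat ratio of 0.690, short of the threshold. Giving each cell equal weight gave 0.704. Over the 10 neural classes the interval lay above 1 in 7 and below 1 in 3. Ndn, Snrpn and Peg3 also had classes on both sides of 1, with smaller ratios save for Peg3 in cycling radial glia. The difference between classes was not tested.

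The lower Nnat sum in pyramidal or hilar neurons came with a shorter upper tail over cells. Over single cells the median was 995 CPM in control against 815 CPM in Setdb1_cKO, while the 90th percentile was 2758 CPM and 1685 CPM. The 10% of cells with most UMIs of Nnat, 13 cells in control, held 37.2% of its UMIs in that class, and the corresponding 36 cells in Setdb1_cKO held 30.7%. Both libraries had Nnat in nearly every cell of the class, in 100% and 99.4%. In early neuroblasts the whole distribution was lower, with medians of 1229 and 999 CPM. Neurod6, the gating gene, was itself at 931 and 762 CPM in the pyramidal or hilar class, and Calb2 at 498 and 377 CPM. Whether the makeup of the class has a part in the Nnat difference was not tested.

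**Figure D3:**
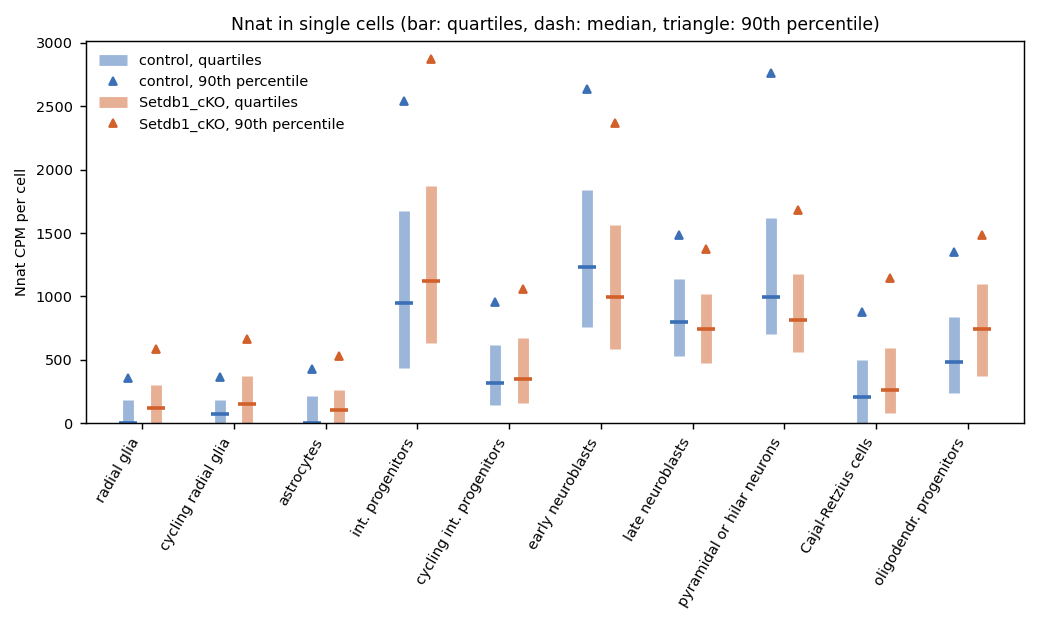
Nnat CPM of single cells (vertical axis) in 10 neural classes (horizontal axis), for control (blue) and Setdb1_cKO (orange), with bars from the lower to the upper quartile, dashes at the median and triangles at the 90th percentile. In pyramidal or hilar neurons the medians are 995 and 815 CPM and the 90th percentiles 2758 and 1685 CPM.

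Blcap, in whose body Nnat lies, had ratios above 1 in the classes where Nnat was below 1. It was at 27.3 and 44.5 CPM in late neuroblasts, a ratio of 1.63 (1.17 to 2.33), and at 52.3 and 77.4 CPM in pyramidal or hilar neurons, a ratio of 1.48 (1.21 to 1.83). In early neuroblasts the ratio was 1.15 (1.01 to 1.32) and in Cajal-Retzius cells 1.07 (0.879 to 1.30).

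Mest was lower in Setdb1_cKO in 7 of 10 neural classes, and in the other 3 its interval included 1. It encodes a protein of the alpha/beta hydrolase family and is widely used in embryonic mesoderm-derived tissue. In control it was highest in fibroblasts at 105 CPM (88.6 to 124), with 81.9 CPM in cycling radial glia, 64.7 CPM (59.6 to 70.1) in early neuroblasts, 48.6 CPM in late neuroblasts and 13.5 CPM in Cajal-Retzius cells. Early neuroblasts of Setdb1_cKO were at 43.3 CPM (39.4 to 47.3), a ratio of 0.668 (0.591 to 0.756). Late neuroblasts were at 35.2 CPM, a ratio of 0.723 (0.551 to 0.959). Pyramidal or hilar neurons at 30.8 and 29.0 CPM, a ratio of 0.943 (0.712 to 1.26), and Cajal-Retzius cells, at 0.776 (0.503 to 1.19), did not differ beyond counting error.

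The lowest Mest ratios were in glial classes. Astrocytes were at 31.9 CPM (29.0 to 35.1) and 17.2 CPM (14.9 to 19.8), a ratio of 0.539 (0.454 to 0.638). Oligodendrocyte progenitors, where Setdb1 itself did not differ beyond counting error, were at 55.4 and 26.8 CPM, a ratio of 0.484 (0.319 to 0.717). Cycling radial glia had a ratio of 0.607 (0.462 to 0.792). Mest was below 1 in all 10 neural classes with at least 50 cells, and the interval lay below 1 in 7 of them. Of the 7864 genes measured in all 10 classes, 4.6% were below 1 in all of them and 2.92% had the interval below 1 in at least 7. Both shares were computed after the Mest values were seen, and the classes share the same libraries. Fibroblasts went the other way, at 105 and 129 CPM, a ratio of 1.23 (0.984 to 1.54). Copg2, which overlaps the end of Mest, was at 21.5 and 20.9 CPM in early neuroblasts and 24.8 and 27.5 CPM in astrocytes.

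Plagl1 was sparse and its largest ratios lay in neurons. It encodes ZAC1, a zinc-finger transcription factor that restrains the cell cycle and binds other imprinted loci. In control it had 50 UMIs in Cajal-Retzius cells, at 13.8 CPM (10.3 to 18.2), and 35 in radial glia, at 8.55 CPM (5.96 to 11.9). The Setdb1_cKO to control ratios there were 0.902 (0.599 to 1.36) and 1.0 (0.570 to 1.73). In pyramidal or hilar neurons 19 UMIs were counted in control against 143 in Setdb1_cKO, at 8.87 CPM (5.34 to 13.8) and 20 CPM (16.8 to 23.5), a ratio of 2.25 (1.39 to 3.85). A Plagl1 UMI was found in 13 of 128 control cells of that class and 93 of 363 Setdb1_cKO cells, 10.2% (5.52 to 16.7) and 25.6% (21.2 to 30.4), without thinning and at median depths of 15646 and 18961 UMIs. Thinned to 2000 UMIs the shares were 1.56% (0.19 to 5.53) and 3.03% (1.52 to 5.36), which overlap.

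Early neuroblasts held 10 control UMIs of Plagl1 against 57 in Setdb1_cKO, at 1.09 CPM (0.523 to 2.01) and 5.25 CPM (3.97 to 6.80), a ratio of 4.81 (2.43 to 10.6). Most of these UMIs lay in the cells with a Neurod6 or Crym UMI or without a Prox1 UMI. Such cells made up 47.2% of the class in control and 43.7% in Setdb1_cKO. Neurod6 alone was found in 39.3% and 30.3% of early neuroblasts, and Crym in 11.1% and 17.5%. Whether the split sets apart another neuron type was not tested. Plagl1 had 6 UMIs in the 797 control cells of this part and 54 in the 708 Setdb1_cKO cells, a ratio of 7.34 (3.16 to 20.9). In the other 892 and 911 cells it had 4 and 3 UMIs, a ratio of 0.656 (0.0961 to 3.88). The split was chosen after the values were seen. Over all early neuroblasts Crym was at 56.5 CPM in control against 150 CPM in Setdb1_cKO, so that Crym moved with Plagl1 in this class, and its part in the ratio was not tested. In Setdb1_cKO, 37 cells held the 57 UMIs, up to 6 in a cell. In the cells with a Prox1 UMI and no Neurod6 or Crym UMI, a higher Plagl1 level was not detectable at this depth.

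**Figure D4:**
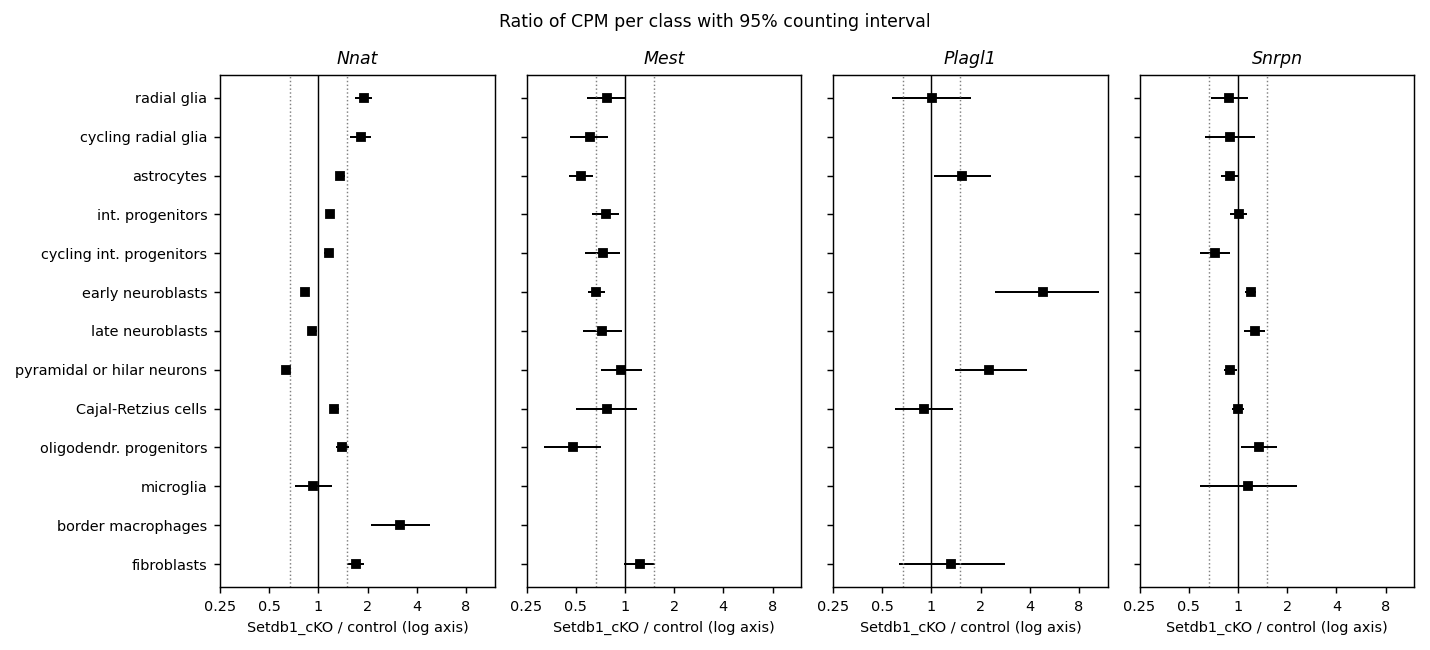
Setdb1_cKO to control ratio of CPM (horizontal axes, log scale) of Nnat, Mest, Plagl1 and Snrpn in 13 cell classes (vertical axis), with exact 95% intervals, for classes with at least 30 UMIs over both libraries. The solid line marks 1 and dotted lines mark 1.5-fold. Nnat lies above 1 in radial glia (1.90) and below 1 in pyramidal or hilar neurons (0.629), Mest at or below 1 in the neural classes, and Plagl1 at 4.81 in early neuroblasts.

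Peg10 and Sgce start head to head. Over the 10 neural classes, all 6 measured Peg10 ratios and 9 of 10 Sgce ratios were within 1.5-fold between genotypes. The exception was Sgce in cycling radial glia, at 0.651 (0.413 to 1.01). Peg10, a gene derived from a retrotransposon, was highest in control microglia at 20.7 CPM (13.1 to 31.0) and border macrophages at 19.8 CPM (8.57 to 39.1). The border macrophage value rests on 8 UMIs, and Setdb1_cKO had 2 there, at 4.69 CPM, under the minimum. Peg10 was at 0.933 CPM in pyramidal or hilar neurons and 1.38 CPM in Cajal-Retzius cells. Sgce, which encodes epsilon-sarcoglycan and is linked to myoclonus-dystonia in humans, was highest in fibroblasts at 72.8 CPM (59.1 to 88.6) and lowest in Cajal-Retzius cells at 13.0 CPM (9.55 to 17.3) among the classes with at least 50 cells. Peg10 gave 32.9% (22.1 to 45.1) of the UMIs of the pair in control microglia, 19.9% (14 to 26.9) in radial glia and 11.4% (8.24 to 15.2) in early neuroblasts. In early neuroblasts the Setdb1_cKO to control ratio was 1.16 (0.758 to 1.79) for Peg10 and 0.841 (0.716 to 0.987) for Sgce. In late neuroblasts Sgce was at 30.6 and 24.1 CPM, a ratio of 0.786 (0.559 to 1.12).

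Counted by class, few of the genes passed 1.5-fold in neurons. In early neuroblasts 1 of 9 measured members did (Plagl1), where 14.2% of all measured genes did. In late neuroblasts 0 of 7 did, beside 15.4% of all genes. In pyramidal or hilar neurons 2 of 8 did (Nnat lower and Plagl1 higher), beside 16.5%. In Cajal-Retzius cells 0 of 8 did, beside 10%. The median log2 ratio of the measured members was 0.17 in early neuroblasts, -0.02 in late neuroblasts, -0.12 in pyramidal or hilar neurons and 0.01 in Cajal-Retzius cells, and that of all measured genes was -0.05, -0.06, -0.13 and -0.02. Plagl1 in early neuroblasts is the member described above whose call was lost outside cells with Neurod6 or Crym or without Prox1. The counts in neurons are near the background. In radial glia 2 of 9 members passed (Nnat higher and Usp29 lower), beside 12.6% of all genes, and in astrocytes 2 of 9 (Plagl1 higher and Mest lower), beside 13.3%. In cycling radial glia 5 of 8 passed (Nnat higher, and Peg3, Usp29, Mest and Sgce lower), beside 14.7%. In intermediate progenitors 0 of 8 passed, beside 13.5%, and in their cycling counterparts 0 of 8, beside 13%. In oligodendrocyte progenitors 1 of 7 passed (Mest lower), beside 12.8%. Outside the neural classes, 0 of 5 passed in microglia, beside 18.5%, 1 of 6 in fibroblasts (Nnat), beside 13.4%, and 2 of 2 in border macrophages (Ndn and Nnat), beside 20.8%. There 1 Setdb1_cKO cell held 18 of the 25 Ndn UMIs, and 1 cell held 65 of the 107 Nnat UMIs. The Usp29 ratio in radial glia, 0.660 (0.407 to 1.05), had an interval that included 1. The intervals of Usp29 and Sgce in cycling radial glia, 0.600 (0.266 to 1.26) and 0.651 (0.413 to 1.01), did not leave out 1.

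Over all gated cells pooled, several genes had higher ratios than with the makeup of the classes held fixed. The pooled ratio was 1.39 for Snrpn, 1.29 for Usp29, 1.13 for Ndn and 1.13 for Nnat. With every class given the share of UMIs it had in control, the ratios were 1.01, 1.02, 0.985 and 1.03. With the shares of Setdb1_cKO they were 1.0, 1.05, 0.974 and 0.901, so that the direction for Nnat depended on the weights. Late neuroblasts made up 2.32% of kept control cells and 8.0% of kept Setdb1_cKO cells, and pyramidal or hilar neurons 1.18% and 3.88%. Mest was at 0.708 pooled, 0.700 at control shares and 0.728 at Setdb1_cKO shares, and Plagl1 at 1.75, 1.41 and 1.66. Whether the classes differ in number because of the genotype, the dissection or the recovery of cells cannot be told apart.

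**Figure D5:**
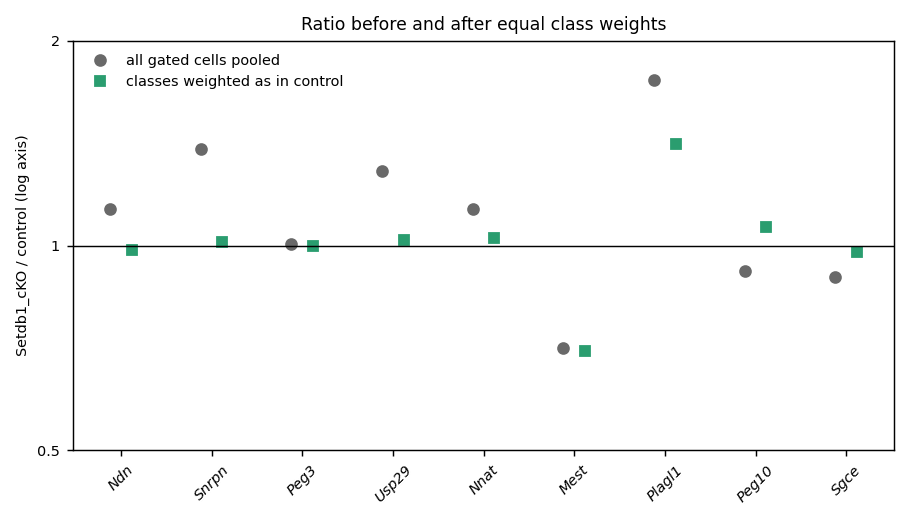
Setdb1_cKO to control ratio (vertical axis, log scale) of 9 of the genes (horizontal axis; Magel2, with too few UMIs, is left out) over all gated cells pooled (circles) and with the 19 classes weighted as in control (squares). Snrpn goes from 1.39 to 1.01 and Usp29 from 1.29 to 1.02, while Mest stays at about 0.7. No interval is drawn, since these are ratios of weighted sums.

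Across the 15 control classes with at least 50 cells, levels of the genes went together to different degrees. Pearson's r of log2(CPM + 10) was 0.84 for Ndn and Peg3, 0.81 for Snrpn and Usp29, and 0.80 for Ndn and Snrpn. In Setdb1_cKO over these classes it was 0.83, 0.84 and 0.66. Other pairs went in opposite ways in control, with the lowest r for Ndn and Peg10 (-0.77) and for Snrpn and Peg10 (-0.74). The head-to-head pairs were at 0.51 (Peg3 and Usp29) and 0.16 (Peg10 and Sgce) in control. Among 10954 genes, those most like Snrpn over the control classes were Gnl3l (r = 0.98), the overlapping Gm38393 (0.97) and Camk2n2 (0.97), and those most like Nnat were Amer1 (0.96), Galnt17 (0.95) and D430019H16Rik (0.94). Those most like Ndn were Lsm1, Trim44 and Eid2 (0.97, 0.96 and 0.96), and those most like Peg3 were Ptpdc1, Col11a1 and Extl2, all at 0.91. Those most like Mest were Gnpnat1, Carm1 and Ybx3 (0.89, 0.88 and 0.87). In Setdb1_cKO these 3 genes, chosen by their r in control, were at 0.15, 0.44 and 0.79 with Mest. The classes there include mural cells (22 cells, 4 Mest UMIs) and endothelial cells (37 cells, 12 Mest UMIs). The points share libraries and depth, and these values are descriptions.

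Other imprinted genes give the setting. Of 13 further paternally expressed genes in the files, 9 were measured in early neuroblasts, and only Nap1l5 passed 1.5-fold, beside 14.2% of all measured genes, at 22.8 and 49.4 CPM, a ratio of 2.17 (1.84 to 2.55). In late neuroblasts Nap1l5 (1.59, 1.24 to 2.06) was higher and Zdbf2 (0.528, 0.333 to 0.856) lower among 8 measured, beside 15.4% of all genes. In pyramidal or hilar neurons Impact (1.69, 1.19 to 2.46) was higher and Zdbf2 (0.619, 0.426 to 0.913) lower among 10, beside 16.5%. Their median log2 ratio in early neuroblasts was 0.03. Of 10 maternally expressed genes, 7 were measured in early neuroblasts and 4 were higher, where 14.2% of all genes passed in either direction. The 4 were Meg3 at a ratio of 3.43, Rian at 3.32, Cdkn1c at 3.15 and Mirg, and the median log2 ratio was 1.37. Meg3, Rian and Mirg lie in the same locus, so this count and median are of genes and not of separate loci. In Cajal-Retzius cells 0 of 9 measured paternally expressed genes and 1 of 6 measured maternally expressed genes, Igf2r, passed, beside 10% of all genes.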

How the data were processed

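Raw UMI counts per gene and barcode were deposited by the authors, and per the file headers Cell Ranger 7.1.0 produced them. The genome was mm10, per the submitters' processing notes. The notes also list Seurat, with intron handling not given in the sources used here. Barcodes with at least 1000 UMIs, 500 genes and at most 10% mitochondrial UMIs were kept, and Scrublet doublet calls (scanpy 1.11.5, expected rate 8%) were removed. The calls took 656 of 13078 scored control and 680 of 11246 scored Setdb1_cKO barcodes, of which 565 and 589 had passed the other filters. Total depth was 82393428 and 87845965 UMIs. Cells were gated by numbers of class markers with a UMI, and cells passing 2 gates were left out. UMIs were summed per class, and ratios carry the exact conditional binomial interval (95%). A ratio was read with at least 30 UMIs. Thinning drew 2000 UMIs per cell. Ratios and intervals were run on counts simulated from the same Poisson model that the intervals assume. That run checks the computation and not the clustering of UMIs in single cells. Named genes outside the members passed 1.5-fold with an interval that leaves out 1, or neighbour or act with a member. Of 32285 gene IDs, 32158 matched GENCODE vM21. Members and gene lists were chosen with earlier results of these data known. Alternatives are in the closing section.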

Additional observations from a re-analysis of the deposited data

Results flagged for a closer look

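The Nnat ratios in border macrophages and in pyramidal or hilar neurons lay on opposite sides of 1, both past 1.5-fold, at 3.16 (2.11 to 4.85) and 0.629 (0.604 to 0.656). The difference between them was not tested. Border macrophages had 32 Nnat UMIs in 85 control cells and 107 in 74 Setdb1_cKO cells, where 1 cell held 65 of the 107. Stmn2, a neuron gene, had a ratio of 3.26 (2.41 to 4.49) in the same cells, and its part in the Nnat ratio was not tested. After thinning to 2000 UMIs the Nnat ratio in border macrophages was 1.0 (0.374 to 2.60).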

How the results depend on the processing

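Of 32 member ratios over the 4 neuron classes with at least 50 cells in both libraries, 3 passed 1.5-fold, and the count was 5 with the stricter cell filter (2000 UMIs, 1000 genes, 5% mitochondrial), 6 with 1 more marker asked and 8 of 39 with no minimum of UMIs; the cause was not tested. Under the other alternatives it was between 2 and 4. Of 1337 comparisons of a value with its alternative, 1210 kept their call, 79 moved beyond counting error, 40 fell short of the threshold, 4 newly passed it and 4 turned direction. These were Ndn in border macrophages (0.670) and Nnat in maturing granule neurons (2.20, from 4 and 15 cells) after thinning and gating again, Ndn in mural cells (0.776) with the stricter gate, and Plagl1 in early neuroblasts (0.656) without cells with Neurod6 or Crym or without Prox1, where fewer cells remain. The Plagl1 ratio in early neuroblasts was 2.11 with each cell weighted equally and 1.71 (0.406 to 8.25) after thinning. The looser gate, the Prox1 restriction and the removal of shared barcodes or of cells with a haemoglobin UMI were chosen after seeing the data. No paired analysis was possible because each group has 1 library. Nnat in pyramidal or hilar neurons stayed below 1 throughout (0.570 to 0.817) and fell short of 1.5-fold with the stricter cell filter (0.711), thinning, equal weight per cell, and both other scalings. Depth limits Magel2, Plagl1 and Peg10.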
